A study of Homo sapiens with 10 samples.

Results

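The genes described here are FAS, TNFRSF10A, TNFRSF10B, TNFRSF10C, TNFRSF10D and EDA2R, 6 cell surface receptor genes of the tumour necrosis factor (TNF) receptor family, which were taken by their gene symbols from tables of 18480 genes. Each of the 6 has 1 probe set in both tables, and the accessions in the tables name the same genes as the symbols. They were measured in HEK-293 cells, a line derived from human embryonic kidney and transformed with adenovirus DNA. The cells were grown in DMEM with 10% fetal bovine serum and transfected with small interfering RNA (siRNA) at 10 nM using RNAiMax, and their total RNA was put on Affymetrix HuGene-1_0-st arrays. The 10 arrays form 5 groups of 2, 1 with a scramble siRNA and the others with siRNAs that target long noncoding RNAs (lncRNAs), namely LINC00324 (its siRNA 1 or its siRNA 2) or LOC400043 (its siRNA 1 or its siRNA 2). All groups, scramble included, carry the same transfection, and the model is limited to a single cell line.

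FAS and the receptors of TRAIL, the ligand encoded by TNFSF10, pass on a signal to die. When the ligand binds, the death domain in the tail of the receptor recruits the adaptor FADD and the initiator caspases 8 and 10, which cleave and switch on the executioner caspases. TNFRSF10A and TNFRSF10B are the TRAIL receptors with a working death domain, while TNFRSF10C, which has no tail, and TNFRSF10D, whose death domain is cut short, are decoy receptors that bind TRAIL without passing on the signal. EDA2R binds the A2 form of ectodysplasin and has no death domain. FAS, TNFRSF10B and EDA2R are known target genes of the transcription factor p53. HEK-293 cells carry p53, but adenoviral proteins in these cells bind it.

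All values are log2 levels from the authors' RMA processing, in which background is removed, the arrays are brought to one distribution and a gene's probes become one value, and the number of arrays limits their precision. The LINC00324 and LOC400043 tables each hold the scramble arrays and the 4 arrays of 1 lncRNA, and were fitted apart, since the scramble arrays have other values in each. Differences were tested with limma over all 18480 genes, and a gene was called at a Benjamini-Hochberg adjusted p under 0.05. The labels call the 2 arrays of a group biological replicates without naming separate cultures, so the p-values measure the spread between these arrays. In such bulk samples fewer cells of a type and less RNA per cell cannot be told apart. Array medians ran from 7.64 to 7.73 and from 7.53 to 7.62 in the LINC00324 and LOC400043 tables. LINC00324, listed under its older symbol, gave 5.79 and 5.80 with scramble, 5.37 and 5.03 with its siRNA 1, and 5.24 and 5.60 with its siRNA 2. The differences of -0.60 and -0.38 were not called in limma (adjusted p 0.184 and 0.308). In the LOC400043 table the same probe set gave 5.76 and 5.58 with scramble, 5.42 and 5.42 with LOC400043 siRNA 1, and 5.47 and 5.43 with LOC400043 siRNA 2, differences of -0.25 and -0.22 that were not called either (limma adjusted p 0.0931 and 0.0906). No probe set of LOC400043 was analysed here, so the silencing of either lncRNA was not shown by a called gene. All 7 measured HEK-293 markers (VIM, CDH2, PAX2, LHX1, KRT8, KRT18 and NEFM) were above 5 with scramble, while the leukocyte marker PTPRC was at 3.85 and 3.62 in the 2 tables.

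The start regions of the receptor genes that differed most from scramble are shown for reading beside their values. Each is the run of 250 bases before the annotated start in RefSeq on GRCh38.p14, at the most upstream start listed for the gene. FAS lies on the plus strand at chr10:88990548-88990797 and EDA2R on the minus strand at chrX:66639270-66639519. Capitals mark an AP-1 motif (TGANTCA) and a GC box (GGGCGG) in FAS, and a CCAAT box (CCAAT) and a GC box in EDA2R.
FAS: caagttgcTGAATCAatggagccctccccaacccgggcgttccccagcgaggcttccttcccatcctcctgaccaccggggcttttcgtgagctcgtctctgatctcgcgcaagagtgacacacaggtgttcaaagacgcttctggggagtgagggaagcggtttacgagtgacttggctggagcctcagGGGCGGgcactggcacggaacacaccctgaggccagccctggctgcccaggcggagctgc
EDA2R: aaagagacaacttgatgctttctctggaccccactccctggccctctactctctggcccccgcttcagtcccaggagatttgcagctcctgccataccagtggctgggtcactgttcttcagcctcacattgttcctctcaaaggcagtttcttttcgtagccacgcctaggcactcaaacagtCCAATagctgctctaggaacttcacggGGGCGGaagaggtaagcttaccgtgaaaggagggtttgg
Both strands were searched. The GC box begins at base -60 of FAS and base -39 of EDA2R, counted from the start, and the same motif was present in 42.6% of 35116 promoter windows of this length. The AP-1 motif of FAS begins at base -242 and was found in 6.57% of windows, and the CCAAT box of EDA2R begins at base -66 and was found in 32%. The letters of a p53 half-site, which 5.57% of windows held, were in neither stretch. Each stretch is only the 250 bases before the most upstream start, so it says nothing of p53 sites elsewhere in either gene. GC content was 62.8% for FAS and 54% for EDA2R, against a median of 58% over all windows.

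FAS, the receptor of FAS ligand, was lower than in scramble with 3 of the 4 siRNAs. Its probe set (7929032, 35 probes) covers chromosome 10 from 90749226 to 90775542 on the plus strand, in the coordinates of the tables, whose build is not given in the sources used here. In the LINC00324 table the scramble arrays gave 8.60 and 8.85, a mean of 8.73 ± 0.18 (SD, n = 2), the siRNA 1 arrays 7.63 and 7.86, and the siRNA 2 arrays 8.01 and 7.85. All 4 arrays of LINC00324 siRNAs lay below both scramble arrays, and the siRNAs overlapped each other. FAS fell by 0.98 (log2, SE 0.13) with LINC00324 siRNA 1, a 1.97-fold lower level with a limma adjusted p of 0.0419. With LINC00324 siRNA 2 it fell by 0.80 (SE 0.13), 1.74-fold, with a limma adjusted p of 0.0399. Leaving out either scramble array or either siRNA 2 array ended both calls, with limma adjusted p between 0.139 and 0.277 for siRNA 1 and between 0.162 and 0.384 for siRNA 2. Without replicate 1 of siRNA 1 the first call was lost too, at an adjusted p of 0.0778 in limma, while the differences stayed between -1.11 and -0.85 for siRNA 1 and between -0.93 and -0.67 for siRNA 2. Without a scramble array or an siRNA 2 array no gene of the table was called with either siRNA, although 1409 to 2091 genes with siRNA 1 and 1329 to 2261 with siRNA 2 had an unadjusted limma p under 0.05.

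In the LOC400043 table the 2 siRNAs parted for FAS. The scramble arrays gave 8.55 and 8.73, the siRNA 1 arrays 8.70 and 8.65, and the siRNA 2 arrays 7.01 and 7.25. The siRNA 1 arrays lay inside the range of scramble, and the siRNA 2 arrays lay more than 1 log2 unit below every other array. FAS fell by 1.51 (SE 0.10) with LOC400043 siRNA 2, to a 2.85-fold lower level with a limma adjusted p of 0.000588, and 9 of the 18480 genes had a lower difference. With siRNA 1 the difference was 0.04 with a 95% interval from -0.21 to 0.28. The siRNA 1 level exceeded the siRNA 2 level by 1.55 (95% interval 1.30 to 1.79, limma adjusted p 0.000502).

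**Figure D1:**
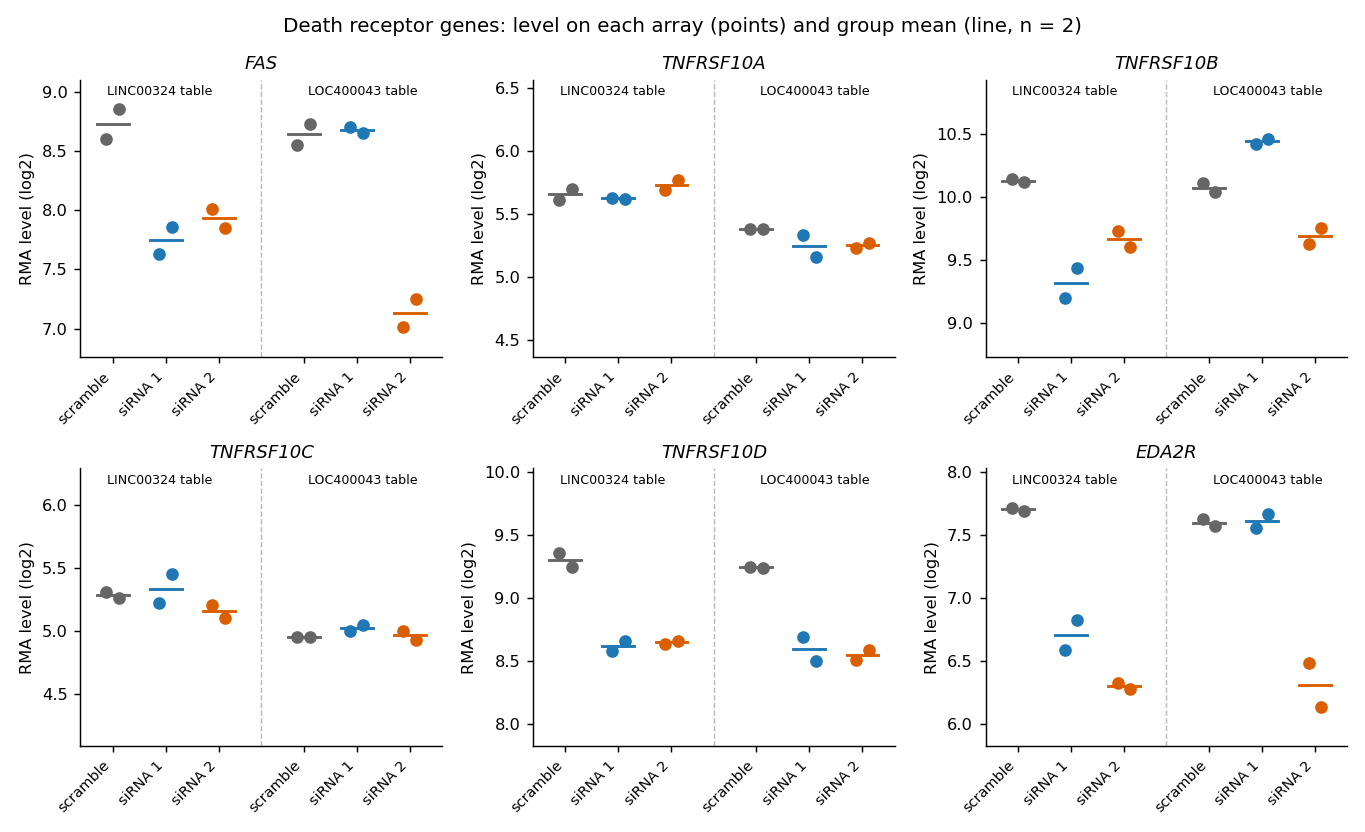
Level of each death receptor gene on each array (points, log2 RMA value) with the mean of the 2 arrays of a group (line), for the LINC00324 table left and the LOC400043 table right of the dashed line in each panel. FAS and EDA2R sit near their scramble level only with LOC400043 siRNA 1, TNFRSF10D is lower with all 4 siRNAs, and TNFRSF10A and TNFRSF10C stay between 4.93 and 5.77 on every array.

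TNFRSF10B, the TRAIL receptor DR5, lay above scramble with LOC400043 siRNA 1 and below it with the other siRNAs. Its probe set (8149733, 38 probes) lies on chromosome 8, minus strand, from 22877646 to 22926692. In the LINC00324 table its levels were 10.14 and 10.12 with scramble, 9.20 and 9.44 with siRNA 1, and 9.73 and 9.60 with siRNA 2. The 3 groups did not overlap, in the order siRNA 1, siRNA 2, scramble. The fall with LINC00324 siRNA 1 was 0.81 (log2, SE 0.10), 1.76-fold, with a limma adjusted p of 0.0406. This call was lost without either scramble array, without replicate 1 of siRNA 1 or without either siRNA 2 array, at limma adjusted p from 0.0597 to 0.277 and differences from -0.93 to -0.70. With LINC00324 siRNA 2 the difference was -0.46 (95% interval -0.71 to -0.21) and was not called in limma (adjusted p 0.0902). It was called without either siRNA 1 array (limma adjusted p 0.0392).

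In the LOC400043 table TNFRSF10B gave 10.11 and 10.04 with scramble, 10.42 and 10.46 with siRNA 1, and 9.63 and 9.75 with siRNA 2. The siRNA 1 arrays were above and the siRNA 2 arrays below both scramble arrays. TNFRSF10B rose by 0.36 (SE 0.07), 1.29-fold, with LOC400043 siRNA 1 (limma adjusted p 0.0232) and fell by 0.39 (SE 0.07), 1.31-fold, with siRNA 2 (limma adjusted p 0.0108). The rise lay above the 95th percentile of all genes with siRNA 1, 0.31. The fall lay inside the range from the 5th to the 95th percentile of all genes with siRNA 2, -0.50 to 0.37. The rise was not called without replicate 2 of scramble (0.33, limma adjusted p 0.0709) or without replicate 1 (0.38, adjusted p 0.123) or replicate 2 (0.34, adjusted p 0.16) of siRNA 1. The fall was not called in limma without replicate 1 of siRNA 2 (-0.33, adjusted p 0.0768). Between the 2 siRNAs the difference was 0.75 (95% interval 0.58 to 0.92, limma adjusted p 0.00139), and it was called in all 12 other settings.

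TNFRSF10A, the TRAIL receptor DR4, was not called in any comparison. Its probe set (8149762, 31 probes) lies near that of TNFRSF10B on chromosome 8, minus strand, from 23048064 to 23082639. Its 12 array values ranged from 5.16 to 5.77, close to the level of 5 below which genes were counted as dim. Its differences from scramble were -0.03 and 0.08 with LINC00324 siRNA 1 and siRNA 2, and -0.14 and -0.13 with LOC400043 siRNA 1 and siRNA 2. The 95% intervals lay between -0.32 and 0.27, so a change of the size seen for TNFRSF10D was outside them. A probe set near the dim limit can understate a change.

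The decoy receptor TNFRSF10D was lower with all 4 siRNAs, by nearly the same amount. Its probe set (8149749, 32 probes) covers 22993101 to 23021543 on the minus strand of chromosome 8. With scramble it gave 9.36 and 9.25 in the LINC00324 table and 9.25 and 9.24 in the LOC400043 table. LINC00324 siRNA 1 gave 8.58 and 8.66, and siRNA 2 gave 8.64 and 8.66. LOC400043 siRNA 1 gave 8.69 and 8.50, and siRNA 2 gave 8.51 and 8.59. No siRNA array reached a scramble array, and the 2 siRNAs of each lncRNA overlapped. TNFRSF10D fell by 0.68 and 0.65 (log2, SE 0.08 each) with LINC00324 siRNA 1 and siRNA 2, with limma adjusted p of 0.0346 and 0.0255. It fell by 0.65 and 0.70 (SE 0.08 each) with LOC400043 siRNA 1 and siRNA 2, with limma adjusted p of 0.00587 and 0.00233. These are falls of 1.57-fold to 1.62-fold. The siRNAs of a lncRNA differed by -0.03 for LINC00324 (95% interval -0.23 to 0.17) and by 0.05 for LOC400043 (-0.15 to 0.25). The call with LINC00324 siRNA 1 was lost without any single array of its table, at limma adjusted p from 0.0542 to 0.258. The call with LINC00324 siRNA 2 was lost without either scramble array or either of its own arrays, at limma adjusted p from 0.159 to 0.286. The call with LOC400043 siRNA 1 was lost without its replicate 2 (-0.55, limma adjusted p 0.0583), and that with LOC400043 siRNA 2 held in all 11 other settings.

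TNFRSF10C, the decoy receptor anchored to the membrane by a lipid, was not called in any comparison. Its probe set (8145244, 31 probes) covers 22941868 to 22974950 on the plus strand of chromosome 8. In the LINC00324 table its levels were 5.10 to 5.45, and those in the LOC400043 table were 4.93 to 5.05, around the dim limit of 5. The differences from scramble were 0.05, -0.14, 0.07 and 0.02 for LINC00324 siRNA 1, LINC00324 siRNA 2, LOC400043 siRNA 1 and LOC400043 siRNA 2, within 95% intervals of -0.38 to 0.29. The 4 TNFRSF10 genes lie next to each other on chromosome 8, so among these neighbours TNFRSF10D was called with all 4 siRNAs, TNFRSF10B with 3, and TNFRSF10A and TNFRSF10C with none.

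EDA2R, the ectodysplasin A2 receptor, was lower than scramble with the same 3 siRNAs as FAS. Its probe set (8173299, 26 probes) lies on chromosome X, minus strand, from 65815479 to 65858883. In the LINC00324 table the arrays gave 7.72 and 7.69 with scramble, 6.59 and 6.83 with siRNA 1, and 6.33 and 6.28 with siRNA 2. The 3 groups did not overlap, and the siRNA 2 arrays were the lowest. EDA2R fell by 1.00 (log2, SE 0.10), 2-fold, with LINC00324 siRNA 1 (limma adjusted p 0.0229). It fell by 1.40 (SE 0.10), 2.64-fold, with LINC00324 siRNA 2 (limma adjusted p 0.00864), where 3 of the 18480 genes had a lower difference. Without either scramble array or either siRNA 2 array both calls were lost, at limma adjusted p from 0.0986 to 0.202 for siRNA 1 and from 0.109 to 0.184 for siRNA 2, with differences of -1.12 to -0.88 and -1.43 to -1.34 over all settings.

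In the LOC400043 table EDA2R gave 7.63 and 7.57 with scramble, 7.56 and 7.67 with siRNA 1, and 6.49 and 6.14 with siRNA 2. Scramble and siRNA 1 overlapped, and both siRNA 2 arrays lay below all others. EDA2R fell by 1.29 (SE 0.12), 2.45-fold, with LOC400043 siRNA 2 (limma adjusted p 0.00111). With siRNA 1 the difference was 0.02 with a 95% interval from -0.26 to 0.30. The siRNAs differed by 1.31 (95% interval 1.03 to 1.59, limma adjusted p 0.00121). For EDA2R and FAS the calls with LOC400043 siRNA 2 held in all 11 other settings, and the differences between the 2 siRNAs in all 12.

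**Figure D2:**
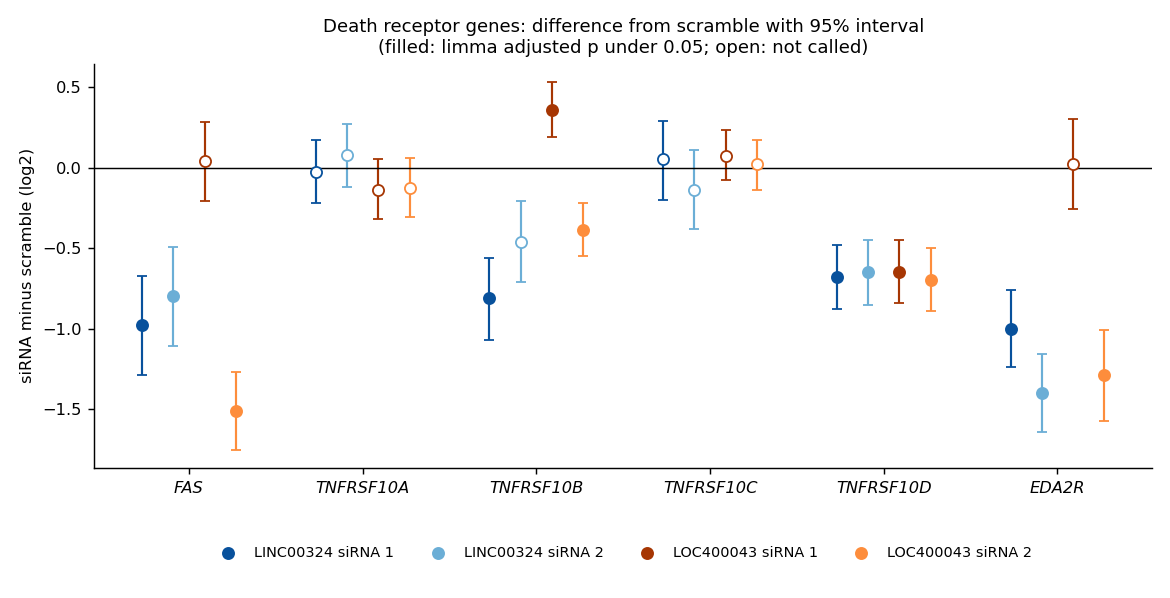
Difference from scramble (log2) of each death receptor gene with each siRNA, with its 95% interval, where filled points passed a limma adjusted p of 0.05 and open points did not. The points of TNFRSF10D lie together between -0.70 and -0.65, those of TNFRSF10A and TNFRSF10C lie around 0, and those of FAS, TNFRSF10B and EDA2R separate LOC400043 siRNA 1 from the other siRNAs.

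Counted by siRNA, LINC00324 siRNA 1 lowered 4 of the 6 genes (FAS, TNFRSF10B, TNFRSF10D and EDA2R), where 0.281% of all genes were called lower, 0.216% higher and 0.498% in either direction. LINC00324 siRNA 2 lowered 3 (FAS, TNFRSF10D and EDA2R), where 1.34% of all genes were called lower, 0.503% higher and 1.85% in either direction. LOC400043 siRNA 1 lowered TNFRSF10D and raised TNFRSF10B, where 7.46% of genes were called lower and 4.05% higher, 11.5% in all. LOC400043 siRNA 2 lowered 4 (FAS, TNFRSF10B, TNFRSF10D and EDA2R), where 13.8% of genes were called lower and 7.9% higher, 21.7% in all. With 1 array left out, 0 to 3 of the 6 genes were called with LINC00324 siRNA 1, 0 to 4 with LINC00324 siRNA 2, 0 to 2 with LOC400043 siRNA 1 and 3 to 4 with LOC400043 siRNA 2. The background itself depends on the fit: with an intensity trend, 931 genes in place of 92 were called with LINC00324 siRNA 1, and 1500 in place of 341 with LINC00324 siRNA 2. The median difference of the 6 genes was -0.75 and -0.56 for LINC00324 siRNA 1 and siRNA 2, and 0.03 and -0.54 for LOC400043 siRNA 1 and siRNA 2. The median over all genes was between 0.01 and 0.03 in each of these comparisons. Because 2 comparisons of a table share its scramble arrays, and both tables hold the same scramble samples, the values stand side by side as descriptions.

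The 2 siRNAs against one lncRNA were also compared directly. For LINC00324, none of the 6 genes was called in limma, where 3.07% of all genes were, 2.28% higher and 0.785% lower with siRNA 1. Of the 6, TNFRSF10B (-0.35, 95% interval -0.60 to -0.10, adjusted p 0.144) and EDA2R (0.40, 0.16 to 0.65, adjusted p 0.0968) had an unadjusted limma p under 0.05. For LOC400043, FAS, TNFRSF10B and EDA2R were called higher with siRNA 1 than with siRNA 2, where 9.63% of all genes were called in that direction, 7.5% in the other and 17.1% in all. TNFRSF10A differed by -0.01 (95% interval -0.19 to 0.18) and TNFRSF10C by 0.05 (-0.10 to 0.21) between the LOC400043 siRNAs. The difference between LINC00324 and LOC400043 was not tested, since their tables were normalized separately.

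The authors' deposited table gives 1 difference per lncRNA, the mean of its 4 siRNA arrays minus the mean of the scramble arrays. For LINC00324, the authors' deposited table lists -0.89 for FAS, -0.637 for TNFRSF10B, -0.668 for TNFRSF10D and -1.2 for EDA2R. For LOC400043, the authors' deposited table lists -0.737 for FAS, -0.012 for TNFRSF10B, -0.672 for TNFRSF10D and -0.637 for EDA2R. Both siRNAs enter each of these values equally, so a value near 0 for TNFRSF10B joins a rise and a fall of similar size.

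The ligands of these receptors were mostly not called. Of 7 measured genes of the list, none was called with either LINC00324 siRNA or with LOC400043 siRNA 1, and 1 was called lower with LOC400043 siRNA 2. That gene was EDA, which encodes ectodysplasin, with a fall of 0.40 (limma adjusted p 0.0176). Over all genes 13.8% were called lower with that siRNA, so 1 of 7 is near the background share. EDA was no longer called in limma without replicate 2 of scramble (adjusted p 0.0568) or of siRNA 2 (adjusted p 0.109). FASLG, the FAS ligand, differed from scramble by 0.11, 0.10, 0.01 and 0.13 over the 4 siRNAs in the order given above, and TNFSF10 by 0.10, 0.19, 0.20 and 0.16. TNFSF10 had group means of 3.70 to 3.94, under the dim limit of 5, so its differences say little about the level of the ligand. The median of the list was 0.10, 0.03, 0.06 and 0.00.

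Few other receptors of the family were called. Of 4 other death domain receptors, TNFRSF21, known as DR6, was the 1 gene called against scramble. It fell by 0.56 with LINC00324 siRNA 2 (limma adjusted p 0.0342), where 1.34% of all genes were called lower. Centring the arrays (limma adjusted p 0.0506) or leaving out either scramble array or either array of that siRNA (0.181 to 0.357) ended this call. Of 17 TNF receptor family genes outside the death receptors, 1 rose and 1 fell, both with LOC400043 siRNA 2. Of all genes, 7.9% were called higher and 13.8% lower with that siRNA. TNFRSF12A, the receptor of TWEAK, rose by 1.13 (limma adjusted p 0.000588) and TNFRSF19 fell by 0.33 (limma adjusted p 0.0487). The call of TNFRSF19 was lost without either scramble array, either siRNA 1 array or replicate 2 of siRNA 2, at limma adjusted p from 0.0544 to 0.223.

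Inside the cell, none of the 15 adaptors and kinases was called with a LINC00324 siRNA, and the median difference of the list lay between -0.05 and 0.00 for each siRNA. With LOC400043 siRNA 1, where 7.46% of all genes were called lower, 2 of 15 fell, which were RIPK1, a kinase recruited to TNF receptors (-0.49, limma adjusted p 0.0179), and FADD (-0.30, limma adjusted p 0.0358). With LOC400043 siRNA 2, FAIM, an inhibitor of FAS signalling, fell by 0.51 (limma adjusted p 0.0125). PEA15, which binds FADD and caspase 8, rose by 0.31 with the same siRNA (limma adjusted p 0.0157). Of all genes, 13.8% were called lower and 7.9% higher with it. The call of FADD was lost without any 1 array (limma adjusted p 0.0605 to 0.193), and that of RIPK1 without replicate 2 of scramble or either siRNA 1 array (0.0572 to 0.119). FAIM was not called without replicate 1 of siRNA 2 (limma adjusted p 0.0673), and PEA15 without either siRNA 2 array (0.0715 and 0.0957).

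Among 15 measured caspases, BCL2 family genes and effectors, 1 was called with LINC00324 siRNA 1 and none with LINC00324 siRNA 2. APAF1, the scaffold of the apoptosome and a known p53 target, fell by 0.95 with LINC00324 siRNA 1 (limma adjusted p 0.0296), and differed by -0.49 with LINC00324 siRNA 2 (adjusted p 0.0778). The call of APAF1 with LINC00324 siRNA 1 was lost without either scramble array or either siRNA 2 array, as for every gene of that table, and also without replicate 1 of siRNA 1 (-0.87, limma adjusted p 0.0564). With LOC400043 siRNA 1, 3 fell, among them DFFA, the inhibitor of the nuclease that cuts DNA in dying cells (-0.71, limma adjusted p 0.00418), and APAF1 (-0.31, adjusted p 0.03). With LOC400043 siRNA 2, 5 fell and 2 rose, and DFFA was among those that fell (-0.79, limma adjusted p 0.00143). Over all genes 7.46% were called lower with LOC400043 siRNA 1, and 13.8% lower and 7.9% higher with siRNA 2, so the 2 higher genes are near the background share. With an array left out, LOC400043 siRNA 2 had 2 to 4 lower and 1 higher. Without replicate 2 of LOC400043 siRNA 1 none of the 3 genes was called with that siRNA, and APAF1 was called with neither LOC400043 siRNA once any array was left out. CASP8, the initiator caspase, was not called against scramble, with differences of -0.07, 0.26, -0.08 and 0.28. CASP10 gave -0.25, -0.34, -0.21 and 0.00, and BID, which links caspase 8 to mitochondria, gave 0.21, 0.14, 0.20 and -0.07, again without a call.

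Of the 10 genes in the list of inhibitors of death receptor signalling, none was called with the LINC00324 siRNAs. LOC400043 siRNA 1 raised 2 of them, CYLD by 0.47 (limma adjusted p 0.0135) and BCL2L1 by 0.30 (limma adjusted p 0.0309). Of all genes, 4.05% were called higher with that siRNA and 7.9% with LOC400043 siRNA 2. LOC400043 siRNA 2 raised 4, which were XIAP by 0.59 (limma adjusted p 0.00336), BCL2 by 0.46 (adjusted p 0.0165), MCL1 by 0.45 (adjusted p 0.00537) and CYLD by 0.44 (adjusted p 0.00941). XIAP blocks executioner caspases, and BCL2, BCL2L1 and MCL1 guard the mitochondrial membrane. CYLD removes ubiquitin chains and is better known for limiting NF-kappaB. It is counted here as a list member, and its rise is not read as inhibition of the death signal. CFLAR, the inhibitor of caspase 8, gave -0.16, -0.11, -0.19 and -0.23 and was not called. Without replicate 1 or replicate 2 of siRNA 1 no inhibitor was called with LOC400043 siRNA 1, and BCL2L1 was also lost without replicate 2 of scramble or either siRNA 2 array (limma adjusted p 0.0638 to 0.0811). With any 1 array left out, 3 to 5 inhibitors were called higher with LOC400043 siRNA 2, without BCL2 when replicate 1 of that siRNA was missing and without CYLD when replicate 2 was.

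**Figure D3:**
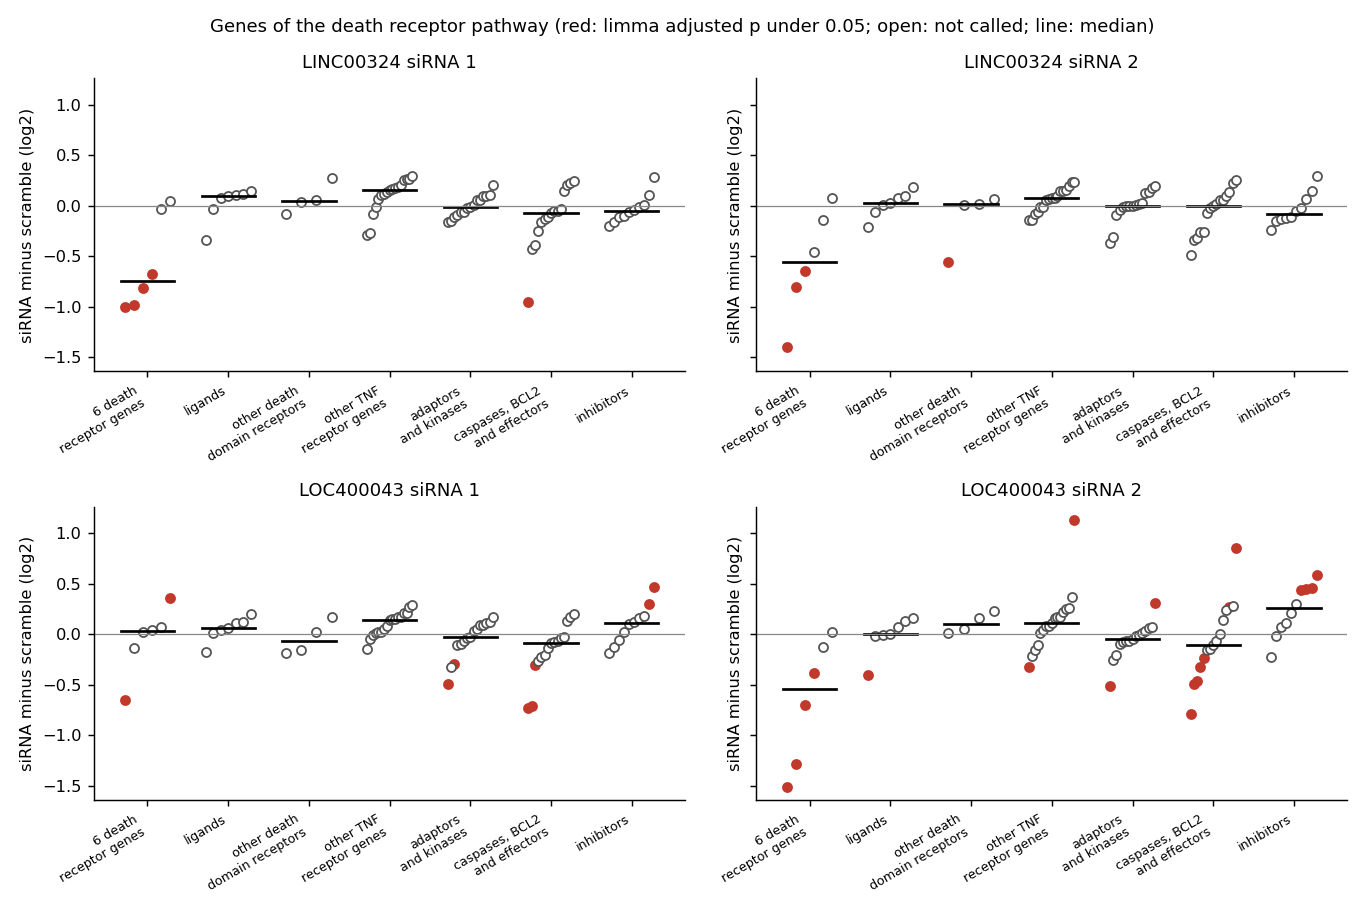
Difference from scramble (log2) of the 6 death receptor genes and of the genes in 6 lists of the same pathway, 1 panel per siRNA, with called genes in red, other genes open and a line at the median. The medians of the 6 receptor genes lie at -0.75, -0.56 and -0.54 in the panels of LINC00324 siRNA 1, LINC00324 siRNA 2 and LOC400043 siRNA 2, while those of the lists lie between -0.11 and 0.25 in all 4 panels.

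Because several receptor genes are p53 targets, a list of 28 other p53 target genes was read beside them, of which 27 were measured. LINC00324 siRNA 1 lowered 8 and raised none, LINC00324 siRNA 2 lowered 6 and raised none, LOC400043 siRNA 1 lowered 2 and raised 2, and LOC400043 siRNA 2 lowered 18 and raised 1. Over all genes 0.281% were called lower with LINC00324 siRNA 1, 1.34% lower with LINC00324 siRNA 2, 7.46% lower and 4.05% higher with LOC400043 siRNA 1, and 13.8% lower and 7.9% higher with LOC400043 siRNA 2. The 2 lower and 2 higher genes with LOC400043 siRNA 1 are near that background. The list medians were -0.45, -0.33, 0.06 and -0.49. The counts for LINC00324 siRNA 1 and siRNA 2 were 0 without either scramble array or either siRNA 2 array, with medians from -0.47 to -0.35. For siRNA 1 the count was 3 or 5 without replicate 1 or replicate 2 of siRNA 1, and for siRNA 2 it was 13 without either. With an intensity trend 19 and 16 genes were called lower. For LOC400043 siRNA 2 the count of lower genes stayed between 15 and 18 without any 1 array, and for LOC400043 siRNA 1 no gene was called without replicate 1 or replicate 2 of that siRNA and 0 to 1 were lower and 2 to 4 higher without another array.

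SPATA18, a regulator of mitochondrial quality, had the largest fall of the list, from 8.44 with scramble to 6.81 with LOC400043 siRNA 2 (-1.63, SE 0.11, limma adjusted p 0.000588). It fell by 1.28 with LINC00324 siRNA 1 and by 0.73 with LINC00324 siRNA 2 (limma adjusted p 0.0141 and 0.0274), and gave -0.27 with LOC400043 siRNA 1. ZMAT3, an RNA-binding protein, followed TNFRSF10B in direction: it fell by 1.24 with LINC00324 siRNA 1 (limma adjusted p 0.0304), gave -0.59 with LINC00324 siRNA 2, rose by 0.43 with LOC400043 siRNA 1 (adjusted p 0.0213) and fell by 1.25 with LOC400043 siRNA 2 (adjusted p 0.000588). TP53I3, an oxidoreductase, and CYFIP2, a regulator of actin assembly, fell by 1.18 and 1.40 with LOC400043 siRNA 2 (limma adjusted p 0.000604 and 0.000275) and by 0.73 and 0.62 with LINC00324 siRNA 2 (limma adjusted p 0.0243 and 0.0255). Of the best known targets, CDKN1A, the cell cycle inhibitor p21, fell by 0.67 with LINC00324 siRNA 1 and by 0.42 with LOC400043 siRNA 2 (limma adjusted p 0.0346 and 0.00821). The first of these calls was lost without any 1 array and the second without replicate 2 of LOC400043 siRNA 2 (-0.36, limma adjusted p 0.0589). MDM2, which marks p53 for degradation, gave -0.60 with LINC00324 siRNA 1 (limma adjusted p 0.0548) and fell by 0.68 with LOC400043 siRNA 2 (adjusted p 0.00172). GADD45A, a stress gene, went the other way from the list and rose by 0.78 with LOC400043 siRNA 2 (limma adjusted p 0.0011).

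The part of p53 in the receptor levels was not tested. Interferon-stimulated genes, which double-stranded RNA can switch on, were compared with scramble as well. Scramble is a transfected siRNA too, so a response shared by all groups would not show in these differences. Of 12 such genes, none was called with 3 of the siRNAs. With LOC400043 siRNA 2, DDX58, a sensor of foreign RNA, rose by 1.45 (limma adjusted p 0.00162). IFIT1 fell by 0.47 with that siRNA (limma adjusted p 0.012), a call lost without its replicate 1. Of all genes, 7.9% were called higher and 13.8% lower with LOC400043 siRNA 2. The part of the DDX58 rise in the receptor levels was not tested.

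**Figure D4:**
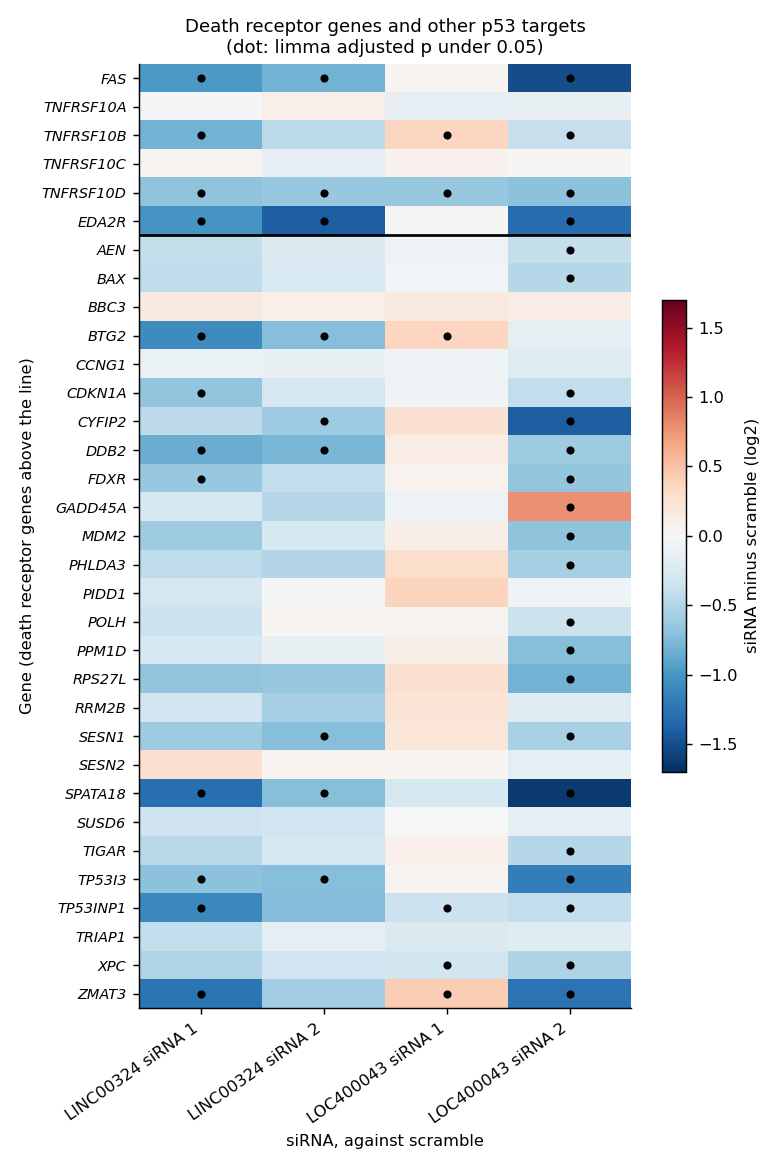
Difference from scramble (log2, colour) of the 6 death receptor genes (above the line) and of 27 other p53 target genes (below), with 1 column per siRNA and a dot where the limma adjusted p was under 0.05. Blue, lower than scramble, fills most of the LINC00324 siRNA 1, LINC00324 siRNA 2 and LOC400043 siRNA 2 columns, with 8, 6 and 18 p53 targets called lower, and the LOC400043 siRNA 1 column is pale.

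One neighbour of FAS gave the same order of siRNAs with a larger size. ACTA2, which encodes smooth muscle actin, covers chromosome 10 from 90694831 to 90751104 on the minus strand, and its probe set region overlaps that of FAS on the opposite strand by 1879 bases. ACTA2 gave 9.41 and 9.41 with scramble, 7.52 and 7.73 with LINC00324 siRNA 1, and 8.11 and 8.01 with LINC00324 siRNA 2. In the LOC400043 table it gave 9.38 and 9.40 with scramble, 9.34 and 9.25 with siRNA 1, and 6.95 and 6.99 with siRNA 2. ACTA2 fell by 1.78 and 1.35 with the LINC00324 siRNAs (SE 0.10 each, limma adjusted p 0.0128 and 0.00864) and gave -0.10 with LOC400043 siRNA 1. With LOC400043 siRNA 2 it fell by 2.42 (SE 0.07, limma adjusted p 4.7e-05). Its calls with the LINC00324 siRNAs were lost without either scramble array or either array of LINC00324 siRNA 2, at limma adjusted p from 0.0887 to 0.184. Probes in a region shared by both genes were not separated here, so the part of the overlap in these values was not tested.

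**Figure D5:**
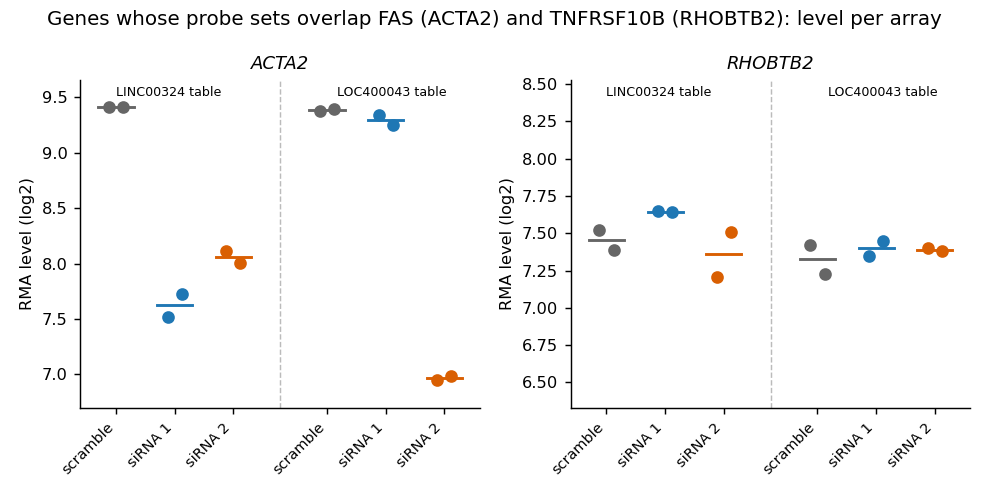
Level (log2 RMA value) of ACTA2, which overlaps FAS, and RHOBTB2, which overlaps TNFRSF10B, on each array (points) with the mean of the 2 arrays of a group (line), for both tables. ACTA2 lies between 6.95 and 8.11 with the LINC00324 siRNAs and LOC400043 siRNA 2 and between 9.25 and 9.41 elsewhere, and RHOBTB2 keeps its level near that of scramble.

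RHOBTB2, which overlaps the end of TNFRSF10B on the other strand by 67 bases, was not called with any siRNA, with differences from scramble of 0.19, -0.10, 0.08 and 0.06. Apart from ACTA2, none of the genes next to the 3 receptor loci, up to 3 per side, was called with a LINC00324 siRNA. With LOC400043 siRNA 1, CHMP7, beside the TNFRSF10 genes, fell by 0.28 (limma adjusted p 0.0394), a call lost without any 1 array. With LOC400043 siRNA 2, CHMP7 (-0.33, limma adjusted p 0.0134) and LOXL2 (-0.35, adjusted p 0.0287) fell and EGR3 rose (0.43, adjusted p 0.00824) beside the TNFRSF10 genes. Beside EDA2R, YIPF6 rose by 0.52 (limma adjusted p 0.00259) with the same siRNA. Of the neighbours named here other than ACTA2, YIPF6 was the 1 whose call held with each array left out.

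The genes whose levels ran most like FAS, TNFRSF10B and EDA2R over the 6 arrays of both tables were ranked by the lower of the 2 Pearson correlations, as a description of arrays that share groups and scramble samples. For FAS these were RABL5 (0.99 and 0.99 in the LINC00324 and LOC400043 tables), ACTA2 (0.98 and 0.99), DDB2 (0.98 and 0.98), WDR36 (0.98 and 0.98) and ASCC3 (0.97 and 0.99). For TNFRSF10B they were AATF (0.97 and 0.97), ISCU (0.97 and 0.97), ZMAT3 (0.99 and 0.97), BTG2 (0.98 and 0.96) and ZNF79 (0.97 and 0.95). For EDA2R they were SLC30A1 (0.97 and 1.00), FAM46A (0.97 and 0.98), CYFIP2 (1.00 and 0.97), KIF1B (0.97 and 0.97) and TP53I3 (0.96 and 0.98). Likeness says nothing of size: RABL5 differed from scramble by -0.32, -0.23, 0.00 and -0.19 over the 4 siRNAs and was not called. Among the receptors themselves, FAS and EDA2R correlated at 0.88 and 0.96 and FAS and TNFRSF10B at 0.95 and 0.88, while TNFRSF10D correlated with TNFRSF10B at 0.90 in the LINC00324 table and at 0.08 in the LOC400043 table.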

How the data were processed

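Total RNA of HEK-293 cells was measured on 10 arrays in 5 groups of 2. The authors deposited 2 tables of log2 values per gene, made with RMA per the submitters' processing notes, each for the 6 arrays of 1 lncRNA and scramble. They also hold the authors' differences (log2) and p-values, deposited as made with limma per those notes. The sources used here name no tool version, genome build or annotation release. The authors' deposited value table of all 10 arrays equals the LINC00324 table in its scramble columns and served as an alternative for comparisons that need no scramble array of the LOC400043 table. The median absolute difference of scramble values between tables was 0.12.

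The fit of each table used limma 3.58.1 under R 4.3.3, with lmFit, then contrasts.fit, then eBayes and two-sided tests, on 3 groups with 3 residual degrees of freedom, without a filter, and tested on simulated data. Benjamini-Hochberg adjustment covered 18480 genes. The members, lists and tests were chosen with earlier results of these data known. Named genes are the 6 receptors, up to 4 called genes per list with the largest differences, genes set for naming whatever their values (such as FASLG, CASP8 and CDKN1A), overlapping genes and called neighbours, and 5 genes by likeness for each of FAS, TNFRSF10B and EDA2R; BCL2L1 and GADD45A were named after their values were seen. Some genes that the rule names are not reported here. As alternatives, a replicate block was tried, and a filter on a mean of at least 5, an intensity trend, another quantile normalization, centred arrays, all 10 arrays in 1 fit, and leaving out each array. Same-numbered arrays deviated from their group means with correlations from -0.38 to 0.6, so the numbers were not taken as pairs. Promoter sequences are RefSeq's on GRCh38.p14.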

Additional observations from a re-analysis of the deposited data

Results flagged for a closer look

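For 3 receptor genes the 2 siRNAs against LOC400043 differed from each other by a test of that difference in limma. FAS was higher with siRNA 1 than with siRNA 2 by 1.55 (log2, SE 0.10, adjusted p 0.000502), with means of 8.68 and 7.13. TNFRSF10B was higher by 0.75 (SE 0.07, limma adjusted p 0.00139), with means of 10.44 and 9.69 on either side of the scramble mean of 10.08. EDA2R was higher by 1.31 (SE 0.12, limma adjusted p 0.00121), with means of 7.62 and 6.31. TNFRSF10D had the same test, with a difference of 0.05 (95% interval -0.15 to 0.25). Groups of 2 arrays are too small to look for single arrays that stand apart.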

How the results depend on the processing

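The count of receptor genes called with LINC00324 siRNA 1 was 4, was 2 with a replicate block (TNFRSF10B adjusted p 0.051, TNFRSF10D adjusted p 0.0504 in limma), and ranged from 0 to 3 when 1 array was left out. For LINC00324 siRNA 2 it was 3, and 0 to 4 with an array left out. With fewer arrays the residual degrees of freedom fall, and the differences of FAS with LINC00324 siRNA 1 stayed between -1.11 and -0.85. Between the LINC00324 siRNAs the count was 0, was 1 with an intensity trend and 1 with all 10 arrays in 1 fit (TNFRSF10B, adjusted p 0.0209 and 0.0476 in limma), and 0 to 1 with an array left out. EDA2R was the gene then called, without replicate 1 of siRNA 1 (0.53, limma adjusted p 0.0395). For LOC400043 the counts were 2 and 0 to 2 (siRNA 1), 4 and 3 to 4 (siRNA 2), and 3 in every setting between the siRNAs. The replicate block changed no other call of a receptor gene. FAS with LINC00324 siRNA 2 was not called with centred arrays (-0.73, limma adjusted p 0.0581). TNFRSF10B with LINC00324 siRNA 2 was called with an intensity trend, another quantile normalization or all 10 arrays (limma adjusted p 0.00543, 0.0361 and 0.0199). The cause of these changes was not tested.

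Direction turned only for uncalled differences near 0. With another quantile normalization TNFRSF10C gave -0.02 with LINC00324 siRNA 1 and -0.01 with LOC400043 siRNA 2. Leaving out 1 array gave ranges of -0.07 to 0.02 (TNFRSF10A) and -0.06 to 0.16 (TNFRSF10C) with LINC00324 siRNA 1, -0.05 to 0.13 (FAS) and -0.04 to 0.07 (EDA2R) with LOC400043 siRNA 1, and -0.02 to 0.05 (TNFRSF10C) with LOC400043 siRNA 2. Between siRNAs the ranges were -0.07 to 0.01 (TNFRSF10D, LINC00324), -0.10 to 0.08 (TNFRSF10A, LOC400043) and -0.04 to 0.14 (TNFRSF10D, LOC400043).

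Over all genes, the count called with LINC00324 siRNA 1 was 92, against 931 with an intensity trend, 340 with another quantile normalization, 717 with all 10 arrays and 0 to 70 with an array left out. For LINC00324 siRNA 2 it was 341, against 1500, 781, 1416 and 0 to 748, and between them 567, against 1859, 1150, 1712 and 0 to 621. For LOC400043 it was 2128 (siRNA 1), 3479 with a trend and 257 to 2310 with an array left out, 4016 and 1789 to 3916 (siRNA 2), and 3165 and 989 to 3680 (between them). Centring the arrays moved the split of lower and higher genes from 248 and 93 to 178 and 128 (LINC00324 siRNA 2), from 2557 and 1459 to 1897 and 2190 (LOC400043 siRNA 2), from 145 and 422 to 212 and 283 (between LINC00324 siRNAs) and from 1386 and 1779 to 1673 and 1386 (between LOC400043 siRNAs). Another quantile normalization gave 428 and 722 between the LINC00324 siRNAs. All calls of named genes outside the receptors kept their direction in every setting run. The fit of all 10 arrays was not run for LOC400043 against scramble. TNFRSF10C has no value under the filter in the LOC400043 table, where its mean was under 5.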
